A study of Mus musculus with 4 samples.

Results

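The respiratory chain genes described here were chosen by symbol from the table of estimated counts: every gene whose name begins with mt-Nd, mt-Co, mt-Atp, mt-Cytb, Nduf, Uqcr, Cox4 to Cox8 or Atp5, and Sdha, Sdhb, Sdhc and Sdhd. The rule found 105 of 25509 genes. Of these, 13 lie in the mitochondrial genome and 92 in the nucleus. The nuclear genes were 83 subunits and 9 assembly or accessory factors (the Ndufaf genes, Atp5s and Atp5sl).

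Mouse naive CD4+ T cells from spleen, sorted as CD25-, CD62L high and CD44 low, were stimulated through CD3 and CD28 for 72 h with TGFb, IL-4 and TL1A, a culture that drives the TH9 state. All groups received the same treatment. The groups differed in genotype, with 2 libraries from WT cells and 2 from Batf3-/- cells, which are null for the transcription factor BATF3. The labels give no strain, age, sex or deleted exons, and do not state where the replicates of a genotype came from. The p-values therefore measure only the spread between these 4 libraries. Batf3-/- cells are called knockout cells from here on. Polyadenylated RNA was sequenced, and counts summed to between 15624874 and 31098059 per library.

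In the check of the labels, Batf3 counts were 1439 and 1661 in WT against 17 and 8 in the knockout, which fits the label of each library. T cell markers were present in all libraries: Cd3d, Cd3e, Cd3g, Cd4, Cd28 and Lck summed to between 1628 and 1931 CPM (counts scaled to a common library total with TMM factors). The B cell marker Ms4a1, the myeloid marker Lyz2 and the NK cell markers Ncr1, Klrb1c and Klra8 had 0 counts in every library. Summed over their lists, B cell markers stood at 9.87 to 13.2 CPM, nearly all from Cd79b, myeloid and dendritic cell markers at 2.02 to 2.85 CPM and NK cell markers at 0.0646 to 0.437 CPM. CD8 T cell markers summed to 7.30 to 9.09 CPM and erythroid markers to 0.386 to 0.582 CPM. The replicate numbers also differed in sex-linked RNA. Xist stood at 0.214 and 0.0944 CPM in the libraries numbered 1 and at 166 and 144 CPM in those numbered 2 (WT and Batf3-/-), and log2 ratios within each number are therefore given beside the main results.

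The respiratory chain carries electrons from NADH and succinate to oxygen through complexes I to IV of the inner mitochondrial membrane, and complex V (ATP synthase) uses the resulting proton gradient to make ATP. Complex II is encoded entirely in the nucleus, whereas complexes I, III, IV and V combine nuclear products with subunits encoded in mitochondrial DNA. Mitochondrial DNA is transcribed as long precursors that are cut into single messages, so the abundances of its messages are not independent of each other. Activated T cells expand their mitochondria as they grow and divide.

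Among the mitochondrial messages, mt-Atp8 and mt-Atp6 share an RNA and overlap in sequence, as do mt-Nd4l and mt-Nd4. The first reading frame of each pair is printed here because the results below turn on these pairs and on base composition. Sequences are from GENCODE M21 (GRCm38), 5′ to 3′, with the bases shared with the downstream frame in capitals.
mt-Atp8 (chrM:7766-7969, plus strand, coding exon): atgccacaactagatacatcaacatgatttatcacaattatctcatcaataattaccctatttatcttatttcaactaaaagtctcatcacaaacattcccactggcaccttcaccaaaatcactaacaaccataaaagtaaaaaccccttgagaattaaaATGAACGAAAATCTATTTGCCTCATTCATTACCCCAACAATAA
mt-Nd4l (chrM:9877-10173, plus strand, coding exon): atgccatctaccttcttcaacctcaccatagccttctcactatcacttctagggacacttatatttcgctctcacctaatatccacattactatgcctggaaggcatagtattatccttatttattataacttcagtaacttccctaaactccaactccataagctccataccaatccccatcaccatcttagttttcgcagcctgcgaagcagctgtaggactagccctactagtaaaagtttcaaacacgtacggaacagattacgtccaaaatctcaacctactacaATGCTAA
The overlap is 43 bases between mt-Atp8 and mt-Atp6 and 7 bases between mt-Nd4l and mt-Nd4. GC content was 31.9% in mt-Atp8 and 36% in mt-Atp6, against 41.1% in mt-Nd4l and 35.6% in mt-Nd4. Counts of these 4 genes were whole numbers in each library.

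The study is about BATF3 in the differentiation of TH9 cells, and the question here is how respiratory chain messages differed without it. Mitochondrially encoded messages made up a smaller share of counts in both knockout libraries than in either WT library, whereas the share of nuclear encoded subunits overlapped between genotypes. The mitochondrial share was 1.92% and 1.65% of all counts in WT replicates 1 and 2 and 1.53% and 1.31% in knockout replicates 1 and 2. The means were 1.79% ± 0.192 and 1.42% ± 0.154 (SD, n = 2 each). Nuclear encoded subunits took 0.976% and 0.907% of counts in WT and 0.996% and 0.908% in knockout cells. In bulk RNA, less of a message per cell and fewer cells of a type that is rich in it cannot be told apart.

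The log2 ratio of mitochondrial to nuclear encoded counts, which does not depend on scaling between libraries, was 0.98 and 0.87 in WT and 0.62 and 0.53 in knockout cells. Its difference was -0.35, with -0.36 within replicate 1 and -0.34 within replicate 2. An exact permutation test, two-sided, gave p = 0.33 for both the share and the ratio, the smallest value that 2 against 2 libraries allow. The ratio moved with base composition. After each library's counts were divided by its own trend on transcript GC content, the ratio was 0.62 and 0.96 in WT and 0.72 and 0.70 in knockout cells, so the groups overlapped and the difference was -0.077 (exact permutation p = 1.00). The difference after division was 0.11 within replicate 1 and -0.26 within replicate 2. The SD of the WT ratio rose from 0.080 to 0.24, as WT replicate 1 moved from 0.98 to 0.62. Mitochondrial genes had a median GC content of 37.1%, against 50.2% over all tested genes, so their correction came from the low part of the trend. The mitochondrial share after the same division was 1.55% and 1.75% in WT and 1.63% and 1.45% in knockout cells.

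**Figure D1:**
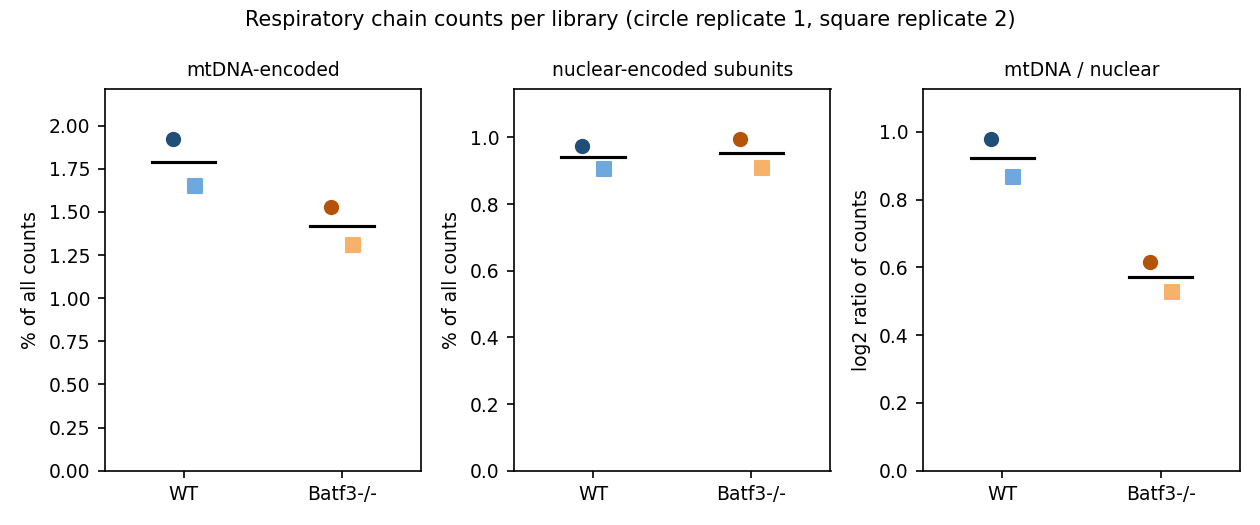
Share of all counts (percent, left and middle) and log2 ratio of mitochondrial to nuclear encoded counts (right) in each library, before any GC correction. Circles are replicate 1, squares replicate 2 and lines the mean of 2 libraries. The knockout ratios of 0.62 and 0.53 sit under the WT ratios of 0.98 and 0.87.

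By complex, and before any GC correction, the difference in the ratio was largest in complexes V and IV. Mitochondrially encoded complex IV messages took 1.33% and 1.08% of counts in WT and 0.976% and 0.891% in knockout cells, and those of complex V took 0.24% and 0.20% against 0.17% and 0.14%. The 2 genotypes did not overlap in either. Mitochondrially encoded complex I messages took 0.304% and 0.310% in WT and 0.309% and 0.226% in knockout cells, so only knockout replicate 2 stood lower. The log2 ratio of mitochondrial to nuclear counts differed by -0.54 in complex V, -0.37 in complex IV and -0.24 in complex I (exact permutation p = 0.33 each). In complex I it was 0.453 and 0.643 in WT and 0.443 and 0.163 in knockout cells. The complex I difference was -0.0093 within replicate 1 and -0.48 within replicate 2. In complex III the ratio differed by 0.086, and the groups overlapped (exact permutation p = 0.667).

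The log2 fold change of knockout over WT cells, log2FC, was fitted for each gene with its standard error (SE). No respiratory chain gene passed edgeR's quasi-likelihood test at an adjusted p of 0.05, where 0.132% of all 12135 tested genes did. Of the 105 genes, 100 had enough counts to be tested. At an unadjusted p under 0.05 there were 4 higher and 3 lower genes of 100, against a background of 3.40% higher, 1.40% lower and 4.80% in either direction over all tested genes. DESeq2 called 1 member, Atp5g2, where it called 0.239% of all genes, and limma-voom called 0. Libraries with the same replicate number share a title prefix whose meaning the labels do not give. With the replicate number as a block edgeR called 3 members (background 0.923%): Atp5g2, mt-Atp8 and Atp5k, at adjusted p-values of 5.16e-04, 8.99e-04 and 0.0141. With GC offsets and the block it called 1, Atp5k, at an adjusted p of 0.0211 (background 0.742%). Without WT replicate 2 edgeR called 10 members, 3 higher and 7 lower, where 4.46% of all genes passed. Without WT replicate 1 it called 1, Atp5g2, where 0.495% of all genes passed. In each case 1 WT library remained, whose spread was taken from the other genes and group. In log2 CPM, WT replicate 1 correlated at 0.984 with WT replicate 2, and at 0.984 and 0.982 with knockout replicates 1 and 2. WT replicate 2 correlated with the knockout libraries at 0.989 and 0.991. Fits without WT replicate 2, here and below, thus set the library least like the others alone against the knockout libraries.

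All 13 mitochondrial genes were tested. Their log2FC values had a median of -0.31, and 11 were negative, against a median of -0.012 and 51.6% negative over all tested genes. In 9 of the 13 both knockout libraries lay under both WT libraries, as in 15.6% of all tested genes (33.8% in either direction), and in 0 they lay above. The 3 genes with an unadjusted p under 0.05 were mt-Atp8, mt-Nd6 and mt-Atp6. The median was -0.15 within replicate 1 and -0.44 within replicate 2. Without knockout replicate 2 it was -0.083, and with GC offsets in the edgeR fit it was -0.048, with 8 of 13 negative. By complex, the medians were -0.25 in complex I, -0.39 in complex IV and -0.70 in complex V. With GC offsets they were 0.011, -0.15 and -0.35. The complex I median was -0.028 within replicate 1 and -0.50 within replicate 2. mt-Cytb, the only one of complex III, stood at 0.082, and at 0.28 with GC offsets.

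**Figure D2:**
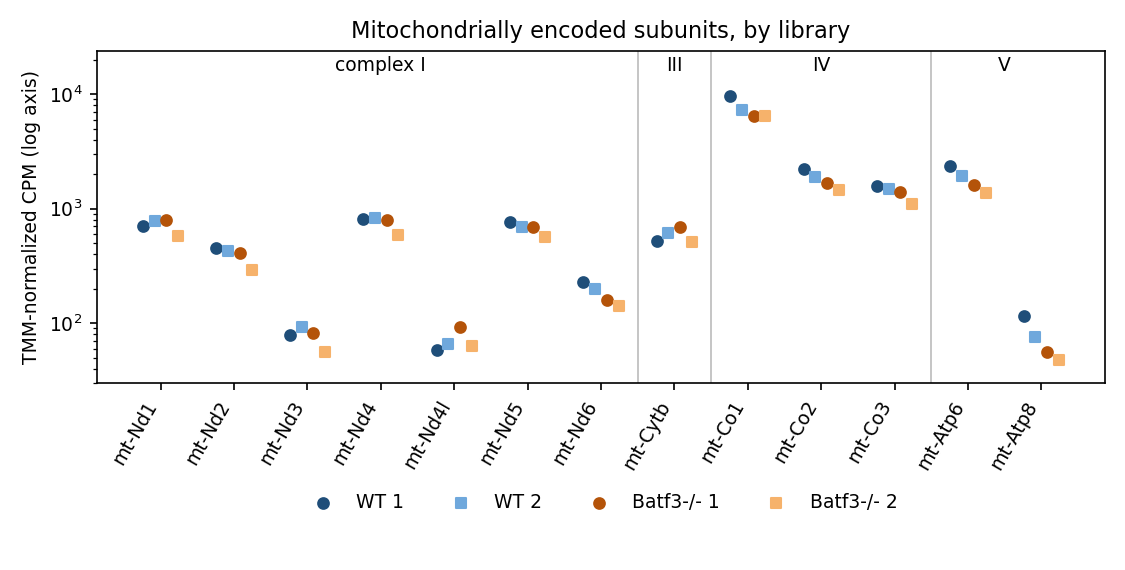
Levels of the 13 mitochondrially encoded messages (TMM-normalized CPM, log axis) in each of the 4 libraries, grouped by complex. Both knockout libraries lie under both WT libraries for mt-Co1, mt-Co2, mt-Co3, mt-Atp6 and mt-Atp8, while the knockout values of mt-Cytb, 696 and 510 CPM, lie on either side of the WT values.

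Complex V has 2 mitochondrial subunits, both part of the membrane-bound proton channel assembly. mt-Atp8 had levels of 115 and 75.1 CPM in WT against 56.3 and 47.4 CPM in knockout cells (log2FC -0.87, SE 0.21, unadjusted p = 6.87e-04, adjusted p = 0.232, edgeR). Both knockout libraries were lower than both WT libraries, and WT replicate 1 was the highest. mt-Atp6, the a subunit at the rotor, had levels of 2364 and 1942 CPM in WT against 1615 and 1382 CPM in knockout cells (log2FC -0.52, SE 0.21, adjusted p = 0.891, edgeR). With GC offsets the log2FC values were -0.47 and -0.24. Without WT replicate 2 both passed (adjusted p = 4.84e-05 and 0.00480, edgeR), and with the replicate block mt-Atp8 passed.

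The 3 mitochondrial subunits of complex IV form its catalytic core. mt-Co1, which holds the site of oxygen reduction, was the most abundant chain message per length at 5509 ± 1065 CPM per kb in WT cells. It had levels of 9674 and 7348 CPM in WT against 6496 and 6433 CPM in knockout cells (log2FC -0.40, SE 0.22). mt-Co2, which takes electrons from cytochrome c, stood at 2223 and 1878 CPM against 1664 and 1469 CPM (log2FC -0.39, SE 0.20). mt-Co3 stood at 1590 and 1488 CPM against 1388 and 1098 CPM (log2FC -0.31, SE 0.20). The genotypes did not overlap for any of the 3, and adjusted p was 0.958 for each in edgeR. Without WT replicate 2, mt-Co1 and mt-Co2 passed in edgeR at adjusted p-values of 0.00358 and 0.0339. With GC offsets the log2FC values of mt-Co1, mt-Co2 and mt-Co3 were -0.17, -0.15 and -0.087.

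The 7 mitochondrial subunits of complex I build its proton-pumping membrane arm. mt-Nd6 is transcribed from the opposite strand to the other 12 genes. It had levels of 231 and 201 CPM in WT against 161 and 141.5 CPM in knockout cells (log2FC -0.51, SE 0.19, unadjusted p = 0.0138, adjusted p = 0.838, edgeR). Both knockout libraries were lower than both WT libraries. It ends within the end of mt-Nd5 on the other strand, and since the library kit keeps strand but the setting used in counting is not stated, reads of the overlap are uncertain. With GC offsets its log2FC was -0.20, and without WT replicate 2 it passed at -0.61 (adjusted p = 0.0362, edgeR).

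mt-Nd4 had levels of 809 and 829 CPM in WT against 794 and 584 CPM in knockout cells (log2FC -0.25, SE 0.20). Its partner on the same RNA, mt-Nd4l, had a log2FC of the other sign, at 58.4 and 65.4 CPM in WT and 92.6 and 63.5 CPM in knockout cells (log2FC 0.34, SE 0.21, adjusted p = 0.958, edgeR). The WT and knockout libraries overlapped for mt-Nd4l, because knockout replicate 2 lay between the WT values. mt-Nd1, mt-Nd2, mt-Nd3 and mt-Nd5 had log2FC values of -0.10, -0.32, -0.31 and -0.22. Their lowest value among the 4 libraries was in knockout replicate 2 in every case. With GC offsets mt-Nd1, mt-Nd4 and mt-Nd5 were positive, at 0.12, 0.011 and 0.037. Complex III has 1 mitochondrial subunit, mt-Cytb, the carrier of the complex's b-type haems. It had levels of 527 and 613 CPM in WT against 696 and 510 CPM in knockout cells (log2FC 0.082, SE 0.21), positive within replicate 1 and negative within replicate 2.

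The shared-RNA pairs gave ratios that separated the genotypes, and so did mt-Nd6 to mt-Nd5. In a shared-RNA pair the ratio compares reads along an RNA that holds both frames, not separate messages. The upstream frames are short, at 204 bases in mt-Atp8 and 297 in mt-Nd4l. The cause of these differences was not tested. The log2 ratio of mt-Nd4l to mt-Nd4 counts was -3.79 and -3.66 in WT and -3.10 and -3.20 in knockout cells, a difference of 0.58. It was 0.69 within replicate 1 and 0.46 within replicate 2. After division by the GC trend it was -3.62 and -3.74 in WT and -3.12 and -3.28 in knockout cells, so the groups did not overlap, with a difference of 0.47. The log2 ratio of mt-Atp8 to mt-Atp6 counts was -4.36 and -4.69 in WT and -4.84 and -4.87 in knockout cells, a difference of -0.33, or -0.24 after the division. An exact permutation test gave p = 0.33 for each of these 4 differences. In the first pair the upstream frame had the higher GC content of the 2, and in the second pair the lower, as printed with the sequences. mt-Nd6 and mt-Nd5, on opposite strands, gave log2 ratios of -1.73 and -1.79 in WT and -2.11 and -1.995 in knockout cells. After the division these were -1.83 and -1.75 in WT and -2.10 and -1.95 in knockout cells. The mt-Co1 to mt-Cytb log2 ratio overlapped, at 4.20 and 3.58 in WT and 3.22 and 3.66 in knockout cells. In single-gene levels the libraries did not overlap in 33.8% of all tested genes. No such share was computed for ratios between other pairs of genes.

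Over the 13 mitochondrial genes the log2FC was correlated with GC content, with Pearson's r = 0.71 and Spearman's rho = 0.53. Without mt-Atp8 and mt-Nd4l, the genes with the lowest and highest GC content, r was 0.35. Within replicates 1 and 2, r was 0.53 and 0.91. Over the 78 tested nuclear subunits r was 0.44, and over 12105 tested genes it was 0.43. These correlations are across genes that share the same 4 libraries and, for the mitochondrial genes, the same precursors, and are given as a description.

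**Figure D3:**
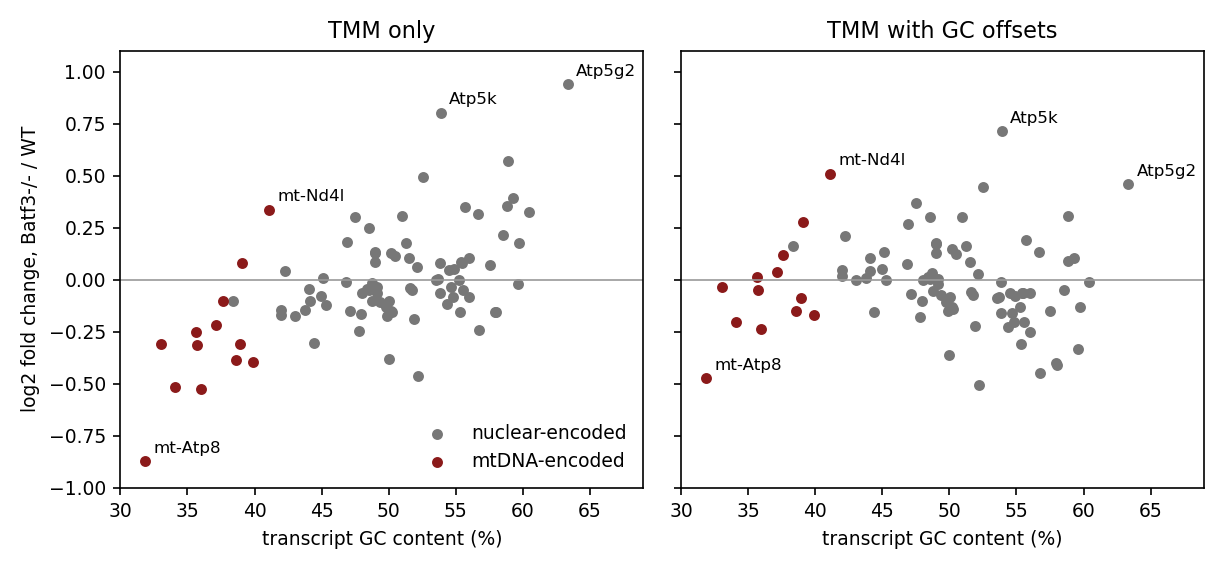
log2 fold change (Batf3-/- over WT) of each tested subunit against the GC content of its longest protein-coding transcript (percent), with TMM scaling only (left) and with GC offsets (right). Dark red points are the 13 mitochondrial and grey points the 78 nuclear encoded subunits. Under TMM scaling mt-Atp8 lies at -0.87 and Atp5g2 at 0.94, and with GC offsets they lie at -0.47 and 0.46.

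Of the 83 nuclear encoded subunits 78 were tested, 33 with positive and 45 with negative log2FC values (median -0.036). The median was -0.025 within replicate 1 and 0.043 within replicate 2, and 0.11 without WT replicate 1. In 16 of the 78 both knockout libraries lay above both WT libraries, where 18.2% of all tested genes did, and in 3 both lay below, where 15.6% did. The medians by complex were -0.046 for complex I (36 tested), -0.031 for complex II (4), 0.055 for complex III (8), -0.047 for complex IV (15) and -0.034 for complex V (15). Per length, nuclear encoded subunits had a median level of 77.8 to 94.1 CPM per kb over the 4 libraries, and mitochondrial messages one of 424 to 576 CPM per kb.

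**Figure D4:**
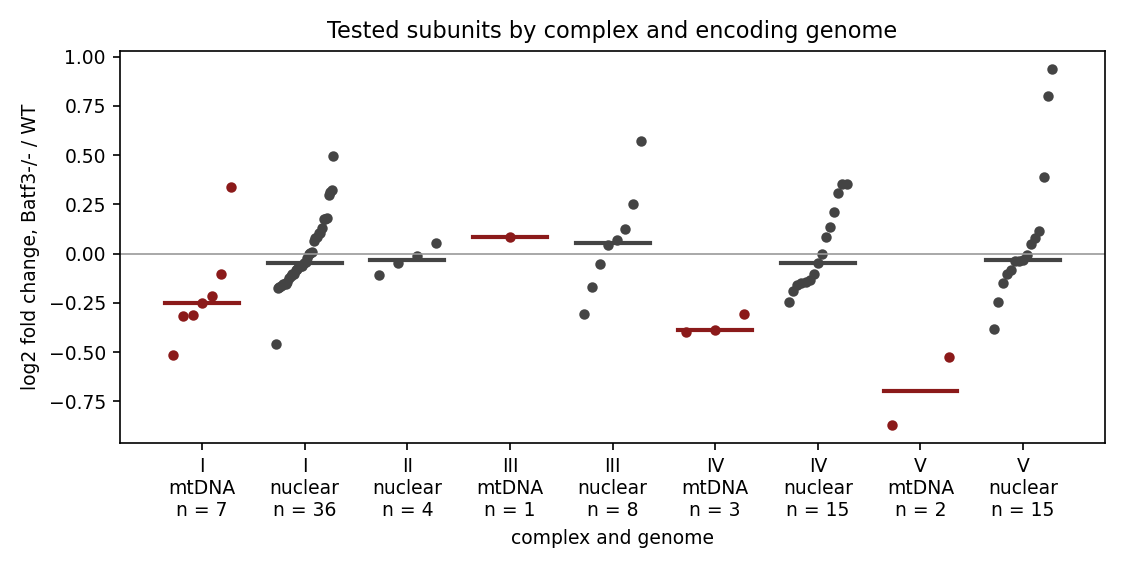
log2 fold change (Batf3-/- over WT) of each tested subunit, by complex and encoding genome. Points are genes and bars are medians. With TMM scaling only, the mitochondrial medians lie at -0.25, -0.39 and -0.70 in complexes I, IV and V, and the nuclear medians between -0.047 and 0.055. With GC offsets, not drawn, the mitochondrial medians were 0.011, -0.15 and -0.35.

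Complex V held the nuclear members with the largest differences. Atp5g1, Atp5g2 and Atp5g3 encode precursors of the c subunit, which forms the rotor ring, and yield the same mature protein with different import sequences. Their promoters are printed because only 1 of these genes stood apart between genotypes. Sequences are from RefSeq (GRCm38.p6), 250 bases before to 50 after the annotated start, 5′ to 3′ on the gene's strand. Capitals mark an AP-1 match (TGANTCA) in Atp5g1 and a match to the core of the NRF1 motif (CGCATGCG) in Atp5g2, and Atp5g3 had no match to either.
Atp5g1 (chr11:96075582-96075881, minus strand): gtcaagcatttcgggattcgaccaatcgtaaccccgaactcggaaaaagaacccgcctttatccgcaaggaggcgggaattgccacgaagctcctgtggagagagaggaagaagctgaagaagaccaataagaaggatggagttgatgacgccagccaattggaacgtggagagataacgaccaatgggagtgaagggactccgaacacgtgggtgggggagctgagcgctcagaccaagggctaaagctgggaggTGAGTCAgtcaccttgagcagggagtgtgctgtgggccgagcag
Atp5g2 (chr15:102670998-102671297, minus strand): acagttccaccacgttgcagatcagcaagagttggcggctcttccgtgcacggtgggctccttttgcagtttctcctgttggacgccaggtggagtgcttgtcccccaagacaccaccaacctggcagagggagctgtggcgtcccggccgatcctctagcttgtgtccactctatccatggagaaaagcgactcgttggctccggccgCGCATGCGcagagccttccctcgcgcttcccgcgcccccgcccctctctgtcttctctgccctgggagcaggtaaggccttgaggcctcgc
Atp5g3 (chr2:73911277-73911576, minus strand): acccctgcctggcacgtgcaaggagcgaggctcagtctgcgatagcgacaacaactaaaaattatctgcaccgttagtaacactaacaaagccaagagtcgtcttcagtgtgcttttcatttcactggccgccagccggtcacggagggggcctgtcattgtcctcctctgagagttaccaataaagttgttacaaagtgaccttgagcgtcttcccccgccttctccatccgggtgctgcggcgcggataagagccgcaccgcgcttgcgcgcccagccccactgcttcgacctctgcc

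Atp5g2 had levels of 28.7 and 24.7 CPM in WT against 44.9 and 57.6 CPM in knockout cells (log2FC 0.94, SE 0.21, unadjusted p = 2.32e-04, adjusted p = 0.113, edgeR). Both knockout libraries were higher than both WT libraries, with a log2 ratio of 0.64 in the libraries numbered 1 and 1.21 in those numbered 2. Its counts were fractional in each library, as RSEM gives where reads match more than 1 locus, so its level is uncertain. DESeq2 called it at an adjusted p of 0.0169, and edgeR called it with the replicate block and without either WT replicate (adjusted p = 0.00418 without replicate 1 and 0.0141 without replicate 2). Its transcript had a GC content of 63.3%, and with GC offsets its log2FC was 0.46 (adjusted p = 1.00, edgeR). Atp5g1 had a log2FC of -0.0089 and Atp5g3 one of 0.12.

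Atp5g2 contributed 10.3% and 9.38% of the counts of the 3 c subunit genes in WT and 14.2% and 19.1% in knockout cells. Atp5g3 contributed the most in each library, between 61.3% and 67.3%. Atp5g1 contributed 22.4% and 27.7% in WT and 23.7% and 19.6% in knockout cells, more than Atp5g2 in each library. Per length in WT cells, Atp5g3 stood at 246 ± 21.3, Atp5g2 at 45.5 ± 4.75 and Atp5g1 at 25.3 ± 2.78 CPM per kb (SD, n = 2). Atp5g3 was thus above the other 2 by more than the spread between libraries. The order of Atp5g1 and Atp5g2 depended on the length used, 2.68 kb for Atp5g1 against 0.586 kb for Atp5g2. Without division by length, Atp5g1 had a mean of 67.8 CPM in WT cells and Atp5g2 one of 26.7 CPM. After division by the GC trend the log2 ratio of Atp5g2 to Atp5g3 was -2.33 and -2.66 in WT and -2.38 and -1.92 in knockout cells, and the groups overlapped.

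Atp5k, which encodes the e subunit that links ATP synthase dimers, had levels of 16.4 and 20.1 CPM in WT against 34.95 and 28.6 CPM in knockout cells (log2FC 0.80, SE 0.22, unadjusted p = 0.00147, adjusted p = 0.325, edgeR). Both knockout libraries were higher than both WT libraries. With GC offsets its log2FC was 0.71 (adjusted p = 0.527), and without WT replicate 2 it was 0.96 (adjusted p = 0.00830, edgeR). It also passed with the replicate block. Atp5h and Atp5l, encoding the d and g subunits, stood at -0.38 and -0.24, with both knockout libraries below both WT libraries. Atp5b, the catalytic beta subunit and the most abundant nuclear member, had levels of 1488 and 1540 CPM in WT against 1545 and 1405 CPM in knockout cells (log2FC -0.038, SE 0.20).

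**Figure D5:**
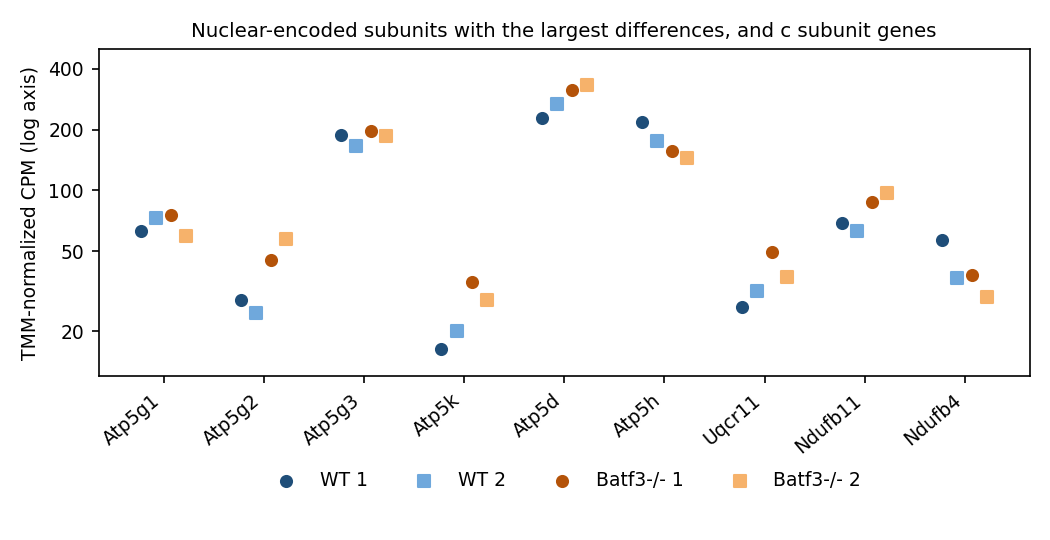
Levels (TMM-normalized CPM, log axis) of the c subunit genes and of other nuclear encoded subunits with large differences, 1 point per library. Atp5g2 and Atp5k lie higher in both knockout libraries than in either WT library, whereas Atp5g1 and Atp5g3 overlap between genotypes.

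In complex I, Ndufb11, a subunit of the membrane arm, had levels of 68.5 and 62.5 CPM in WT against 88.0 and 96.7 CPM in knockout cells (log2FC 0.49, SE 0.19, unadjusted p = 0.0152, adjusted p = 0.840, edgeR). The libraries did not overlap, and with GC offsets the value was 0.44. Ndufa13 followed at 0.32, and at the other end were Ndufb4 at -0.46 (SE 0.23) and Ndufs4 at -0.17. Ndufb4 passed without WT replicate 2 at -0.74 (adjusted p = 0.0225, edgeR). Ndufv3, the most abundant nuclear complex I message in CPM, stood at 0.10. The complex II gene Sdhc lies on chromosome 1 at 19.9 Mb from Batf3, and its log2FC was -0.014 (SE 0.18).

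Complex II had the narrowest range of log2FC among nuclear subunits, from -0.11 to 0.053. It also had the fewest tested, 4 against 36, 8, 15 and 15 in complexes I, III, IV and V, and a range tends to widen with more genes. Sdha, the flavoprotein that oxidises succinate, had levels of 186 and 234 CPM in WT against 192 and 215 CPM in knockout cells (log2FC -0.048, SE 0.19). Sdhb, the iron-sulphur subunit, stood at 0.053 (SE 0.19), and the membrane anchors Sdhc and Sdhd at -0.014 and -0.11. The WT and knockout libraries overlapped for all 4 genes. In complex III, Uqcr11 had levels of 26.3 and 31.8 CPM in WT against 49.2 and 37.0 CPM in knockout cells (log2FC 0.57, SE 0.21, unadjusted p = 0.0141, adjusted p = 0.840, edgeR). Its libraries did not overlap. It passed without WT replicate 2 (adjusted p = 0.0419, edgeR), and with GC offsets its value was 0.31. Uqcrfs1, the Rieske iron-sulphur protein, stood at 0.25, Uqcrh at -0.17 and the core protein gene Uqcrc2, the most abundant nuclear complex III message in CPM, at -0.30. Uqcrc2 passed without WT replicate 2 at -0.56 (adjusted p = 0.0486, edgeR).

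Complex IV has several subunits with alternative isoforms, some known mainly from muscle, lung or testis. Cox8b, Cox8c, Cox7b2 and Ndufa4l2 had 0 counts in all libraries, and Cox6a2 had 5 to 7 counts, too few to test. The common forms were abundant: Cox4i1 had levels of 357.5 and 311 CPM in WT against 308 and 292 CPM in knockout cells (log2FC -0.16, SE 0.19), with both knockout libraries slightly under the lower WT library. Cox4i2, its alternative form, stood at 10.8 and 7.65 against 6.83 and 8.86 CPM. The log2 ratio of Cox4i2 to Cox4i1 counts was -5.05 and -5.35 in WT and -5.50 and -5.04 in knockout cells, and the groups overlapped (exact permutation p = 1.00).

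Cox6a1 had a log2FC of 0.36 (SE 0.19) and Cox6b1 one of 0.31 (SE 0.18), and both knockout libraries were above both WT libraries for each. The alternative form Cox6b2 stood at 0.35 (SE 0.32), at 2.99 to 4.85 CPM. Cox7a1 and Cox7a2 stood at -0.0036 and -0.19, and Cox7a2l, which joins complexes III and IV in supercomplexes, at -0.13. Cox8a stood at 0.21, and Ndufa4, named for complex I but a subunit of complex IV, at -0.047. With GC offsets Cox6a1 stood at 0.092, Cox6b1 at 0.30 and Cox4i1 at -0.41. Of the 9 assembly or accessory factors, all tested, 3 were positive and 6 negative (median -0.075). They ranged from Ndufaf7, a methyltransferase of complex I assembly, at -0.38 to Ndufaf2 at 0.33.

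Promoter sequences were matched for 76 of the 92 nuclear members. NRF1 is a known activator of nuclear respiratory genes. The core of its motif, CGCATGCG on either strand, was in 11 of the 76 (14.5%), against 2.07% of 27025 genes with a promoter of the same length. The 11 were Atp5g2, Atp5k, Uqcr11, Cox6a1, Uqcrc1, Ndufaf4, Ndufaf5, Atp5j, Ndufa8, Ndufa11 and Atp5l, with log2FC values from 0.94 and 0.80 in Atp5g2 and Atp5k to -0.24 in Atp5l. Their signs were mixed, with 5 positive and 6 negative. An ETS match, CCGGAAGT on either strand, was in 5 of the 76 (6.58%) and 4.31% of all. An AP-1 match, TGANTCA on either strand, the core letters bound by JUN and BATF dimers, was in 7 (9.21%) and 8.97% of all. Those 7 were Ndufa5, Ndufa9, Ndufa13, Uqcrh, Cox7c, Atp5c1 and Atp5g1, from -0.17 to 0.32. These matches are letters in a window, and the NRF1 and AP-1 groups were listed after the values were seen. The background of 27025 genes was not limited to expressed genes or to promoters of similar base composition.

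The other genes of mitochondrial energy metabolism had medians near that of all genes, and 0 members of any list passed edgeR's test. Of 33 tested genes for expression and maintenance of mitochondrial DNA, 13 were positive (median -0.031, 0 with an unadjusted p under 0.05). Tfam, which packages mitochondrial DNA and starts its transcription, had a mean level of 51.2 ± 9.23 CPM in WT against 41.9 ± 3.10 CPM in knockout cells (log2FC -0.29, SE 0.20), and Fastk, an RNA-binding protein that stabilises mt-Nd6 message, at 49.7 ± 3.87 and 64.1 ± 9.57 CPM (log2FC 0.37, SE 0.19). Of 10 tested nuclear regulators 3 were positive (median -0.079). Esrra, the oestrogen-related receptor that activates respiratory genes, stood at 14.9 ± 2.80 and 24.2 ± 1.93 CPM (log2FC 0.70, SE 0.22, unadjusted p = 0.00560, adjusted p = 0.647, edgeR), and Gabpb1 at -0.26.

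Of 21 tested genes of the TCA cycle and pyruvate oxidation 10 were positive (median -0.0080), with Dlat at 0.14 and the pyruvate carrier Mpc1 at -0.42. Of 19 tested genes for electron carriers and coenzyme Q synthesis 7 were positive (median -0.052), with Adck4 at 0.29 and Coq7 at -0.42. Of 4 tested chain subunits and associated proteins that the name rule missed, among them Atpif1, 1 was positive (median -0.10). They included Cyc1, cytochrome c1 of complex III, at 0.34, and Usmg5, a small ATP synthase subunit, at -0.39. Of 42 tested assembly factors outside the rule 17 were positive (median -0.043), with the copper chaperone Sco2 at 0.79 (SE 0.41) at 1.29 to 5.19 CPM and Tmem70 at -0.39.

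Ribosomal protein genes, which like the chain subunits have short messages, gave a further comparison. Of 77 mitochondrial ribosomal protein genes, all tested, 36 were positive (median -0.037), with Mrps26 at 0.39 and Mrpl1 at -0.41. Of 84 tested cytosolic ribosomal protein genes 45 were positive (median 0.028), with Rpl23a at 0.97 and Rps27l at -0.38. Among 8 apoptosis and damage stress genes 6 were positive (median 0.16, -0.086 with GC offsets), with Bbc3 at 0.75 (unadjusted p = 0.00947, edgeR) and Mdm2 at -0.23, and their part in the chain results was not tested.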

How the data were processed

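The authors deposited an expected count (estimated count) per gene; STAR 2.5.0, RSEM 1.2.25 and the build GRCm38 are named in the submitters' processing notes. No source used here gives the annotation release or the strand setting. The 92 spike-in entries, at 0 throughout, were dropped. Of the members, 19 had a fractional estimate in some library. Rounded counts went into the quasi-likelihood test of edgeR 4.0.16 under R 4.3.3 (filterByExpr minimum count 10 and total 15, TMM, robust, legacy=FALSE, two-sided, Benjamini-Hochberg over 12135 genes), genotype as the only term. DESeq2 1.42.0 and limma 3.58.1 (voom) were alternatives. Levels are TMM-normalized CPM; CPM per kb divides by the median length of a gene's basic protein-coding transcripts (GENCODE M21). Ratios within a replicate number use log2(CPM + 0.5). GC offsets are each library's lowess trend (span 0.3) of genes' deviations in log2 CPM from their mean over libraries on the GC content of the longest protein-coding transcript; all 105 members matched. Dividing summed counts by that trend was added after seeing the data. Standard errors are the log2 fold change over the root of its F statistic.

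The members, lists and tests were chosen with earlier results of these data known. Genes were named by a rule: all mitochondrial members, the 2 extremes per direction and the most abundant nuclear subunit of each complex, isoform groups, the extremes of the assembly factors, members called in any fit, and the smallest p per direction of each list. Others were named after their values were seen. Counts were simulated for the knockout against WT comparison (12128 genes). edgeR found 66% of the 2-fold changes and 98% of the 4-fold changes, and 9 of its 173 calls were false. The simulation gave all genes the same dispersion, with no GC trend and no replicate effect, so these rates need not hold for the real libraries. The NRF1 letters searched were shortened to the motif's core after a longer form had been tried.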

Additional observations from a re-analysis of the deposited data

How the results depend on the processing

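With 2 libraries per genotype the exact permutation test cannot pass 0.05, and Cox6a2, at 5 to 7 counts, was too shallow to test. Under 8 other scalings, filters and models the medians of the mitochondrial and nuclear subunits moved by less than the spread between replicates. With GC offsets the mitochondrial median was -0.048, and -0.044 with GC offsets and the replicate block; the cause was not tested. With 1 library left out at a time the mitochondrial median ranged from -0.49 to -0.083, the nuclear median from -0.091 to 0.11, the mitochondrial share difference from -0.51 to -0.23 percentage points, and the nuclear share difference from -0.033 to 0.055 percentage points. Divided by the GC trend, the nuclear share difference was -0.016 percentage points, against 0.011 as counted.

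Members past the threshold numbered 0, but 1 with DESeq2, 3 with the replicate block (Atp5g2 and Atp5k higher, mt-Atp8 lower), 1 with GC offsets and the replicate block (Atp5k), and 0 to 10 with 1 library left out. Over all genes the 16 calls became 29 with DESeq2, 112 with the replicate block, 10 with GC offsets, 90 with both, and 18 to 553 with 1 library left out. Same-numbered libraries of both genotypes share a title prefix and the Xist level (high or low), but the labels do not say that a number marks shared animals or a day, so neither fit is preferred on that ground; deviations of same-numbered libraries correlated at 0.18 over genes. With the replicate block the mitochondrial median was -0.33. The share differences, averaged within replicate numbers, equal the pooled ones by arithmetic in this design and are no separate check.

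Of 675 alternative values for 45 named genes, 607 kept direction and side, 16 passed and 52 changed sign. With GC offsets, without and with the block, these were mt-Nd1 at 0.12 and 0.14, mt-Nd4 at 0.011 and 0.029, mt-Nd5 at 0.037 and 0.043, Ndufa13 at -0.012 and -0.012, Ndufv3 at -0.063 and -0.059, Sdha at 0.0027 and 0.012, Sdhc at 0.034 and 0.035, Sdhb at -0.079 and -0.065, Atp5g1 at 0.073 and 0.070, Cox8a at -0.048 and -0.047, and Ndufa4 at 0.10 and 0.094. With GC offsets and the block together, but not with GC offsets alone, they were mt-Nd3 at 0.015 and Ndufs4 at 0.0014. With upper-quartile scaling they were Sdhc at 0.014, Atp5g1 at 0.023 and Cox7a1 at 0.029. Cox7a1 was 0.0016 with DESeq2, 0.0040 with voom, 0.0071 with legacy=TRUE and 0.034 with the replicate block. With 1 library left out the ranges were -0.34 to 0.10 for mt-Nd1, -0.16 to 0.29 for mt-Cytb, -0.42 to 0.11 for Ndufs4, -0.29 to 0.087 for Sdhd, -0.22 to 0.13 for Sdha, -0.058 to 0.020 for Sdhc, -0.091 to 0.20 for Sdhb, -0.48 to 0.21 for Uqcrh, -0.47 to 0.0064 for Cox4i2, -0.46 to 0.13 for Cox7a2, -0.11 to 0.032 for Atp5b, -0.19 to 0.15 for Atp5g1, -0.21 to 0.24 for Cox7a1, -0.31 to 0.056 for Cox7a2l and -0.26 to 0.18 for Ndufa4.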
